A study of Mus musculus with 17 samples.

Results

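In lung RNA of 17 mice, 138 genes separated the wild-type (WT) libraries from those of both engineered genotypes, the PPARα null (KO) and the humanized PPARα (KI). The genes were chosen by their own values. Estimated counts were expressed as CPM, a gene's share of its library's column total scaled to the usual common size, and a gene was taken if it lay on an autosome, had a mean of at least 2 CPM over the 17 libraries, had its lowest of 5 WT values above the highest of the 12 KO and KI values, or the reverse, and differed by at least 1.5-fold between the means of both sets. Of 31245 genes in the table, 16200 lay on an autosome and reached that mean, and the 138 are 0.852% of these. In 53 genes the WT libraries were higher and in 85 they were lower. Since the difference between WT and the other libraries chose the genes, its size is described without a test throughout.

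The WT mice were of an inbred strain bought from the Jackson Laboratory. KO and KI mice were bred from shared pairs of mouse PPARα null and human PPARα heterozygous animals, so PPARα genotype, background strain and breeding colony cannot be told apart in any comparison with WT. From 6 weeks of age all mice ate a diet modelled on an adult human diet, and for 14 weeks they drank 0.5% sucrose water (vehicle) or the same water with 6.2 μg/mL perfluorooctanoic acid (PFOA). Each group had 3 mice, except WT vehicle with 2, and each library was made from the snap-frozen lung of 1 numbered mouse. All 6 KO mice were female, whereas WT had 2 females and 3 males and KI had 4 females and 2 males. In the 2 WT and 10 other female libraries non-overlap of the 138 genes follows from the rule, and 133 of them kept the fold and CPM limits there, among 524 genes that met the rule in these libraries. A pair of libraries stood apart, WT vehicle 122 and KO vehicle 137, with 65.3% and 61.3% of counts in protein-coding genes against 74.4% to 80.4% in the others. The counts of KO vehicle 137 differed from the other 2 libraries of its group by 52.8 and 54.2 chi-square per degree of freedom, whereas those 2 differed from each other by 6.28, and the WT vehicle libraries differed by 57.9. Without both libraries 233 genes met the rule, with 133 of the 138 among them.

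PPARα is a nuclear receptor that binds fatty acids and turns on genes of fat oxidation, and PFOA is one of its ligands. The PYHIN genes named Ifi2xx, the oligoadenylate synthetases and the Mx and guanylate-binding GTPases belong to the interferon response, by which cells sense and restrict viruses. Their promoters commonly hold an interferon-stimulated response element, which is built from repeated GAAA.

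To show that letter pattern, the 110 bases around the match are given for 4 of the genes that were lower in WT and held it. Each is 5′ to 3′ on the minus strand of GRCm38.p6 with the match in capitals. Around the match, Ifi206 and Ifi213 have nearly the same letters, so they are not separate instances. Ifi206 is at chr1:173491319-173491428, Ifi213 at chr1:173599276-173599385, Ifi211 at chr1:173913047-173913156 and Oas1a at chr5:120907526-120907635. The sequences are from the RefSeq promoter table.
Ifi206: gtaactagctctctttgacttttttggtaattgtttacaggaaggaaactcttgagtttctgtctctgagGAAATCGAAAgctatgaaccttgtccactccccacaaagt
Ifi213: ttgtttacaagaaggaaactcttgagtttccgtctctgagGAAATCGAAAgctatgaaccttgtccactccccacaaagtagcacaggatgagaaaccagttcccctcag
Ifi211: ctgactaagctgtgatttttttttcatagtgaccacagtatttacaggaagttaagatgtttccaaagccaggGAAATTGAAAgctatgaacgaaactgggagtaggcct
Oas1a: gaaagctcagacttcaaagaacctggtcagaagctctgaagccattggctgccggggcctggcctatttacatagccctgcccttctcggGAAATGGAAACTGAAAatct

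The letters searched were GAAANNGAAA on either strand, in the 250 bases before and 50 after each RefSeq start site. The pattern was in 3.44% of all 32851 promoters, and 3.99% of the 27025 genes in the table held it in at least 1 promoter. It was in 7 (8.33%) of the 84 chosen genes that have a promoter in the table (Ifi206, Ifi211, Ifi213, Oas1a, Cd59a, Tenm4 and H2-T22). These 7 were among the 54 with lower WT values, and the 30 with higher WT values held 0. At the share over all genes few matches are due among 30, so no contrast by direction is read from this. Of the interferon list, members or not, 19 of the 27 genes with a promoter in the table held the pattern. Ifi209, Oas2, Mx1 and Gbp6, interferon genes also lower in WT, either held no match or had no listed promoter. The match starts 40 bases before the start site in Ifi206, 73 in Ifi213 and 37 in Ifi211, and Oas1a holds 2 overlapping matches, at 20 and 14 bases. A match of letters is a description and shows no binding. Ifi211 and Tenm4 were chosen for mention after their values were seen.

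Ppara, the gene engineered in these mice (chr15:85734983-85802819, plus strand, mm10), was lower in WT than in either engineered genotype. Its WT values were 6.11 and 6.06 CPM on vehicle and 5.11, 4.51 and 7.01 CPM on PFOA. In the libraries labelled KO it ran from 8.88 to 12.4 CPM (median 10.4), and in those labelled KI from 8.98 to 19.8 CPM (median 15.1). The mean over KO and KI was 2.17-fold the WT mean. The gene sum was thus not reduced in the libraries labelled KO. A gene sum does not tell reads of the disrupted part from those of the rest, so it is no check of the null allele. KI mice express human PPARα, whereas reads were mapped on the mouse genome. How reads of the human transcript were counted was not tested, so the KI value is no measure of PPARα expression. KI had a mean of 14.5 ± 3.57 CPM (SD, n = 6) and KO one of 10.5 ± 1.31 CPM (SD, n = 6), a difference the rule did not use (two-sided exact permutation p = 0.0260). Across all genes the edgeR quasi-likelihood test gave a log2 fold change of 0.52 ± 0.18 (SE) for KI against KO with an adjusted p of 1.0. Among females alone the KI mean was 13 CPM, with an exact permutation p of 0.114 for 4 against 6 libraries.

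No other gene near Ppara joined the list. Of 112 other genes that reached the CPM floor within 5 Mb of it, 0 met the rule, and 1 separated without reaching 1.5-fold. Within 10 Mb, Cntn1, a neuronal adhesion protein gene, was the 1 of 257 that met it (40.5 CPM in WT against 9.89 CPM). Among 37 measured PPARα target genes 0 were members, and the median log2 ratio of WT to the others was -0.10 over that list, beside -0.03 over all 16200 genes. The WT mean was the lower in 27 of these 37, beside 56.4% of all genes.

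**Figure D1:**
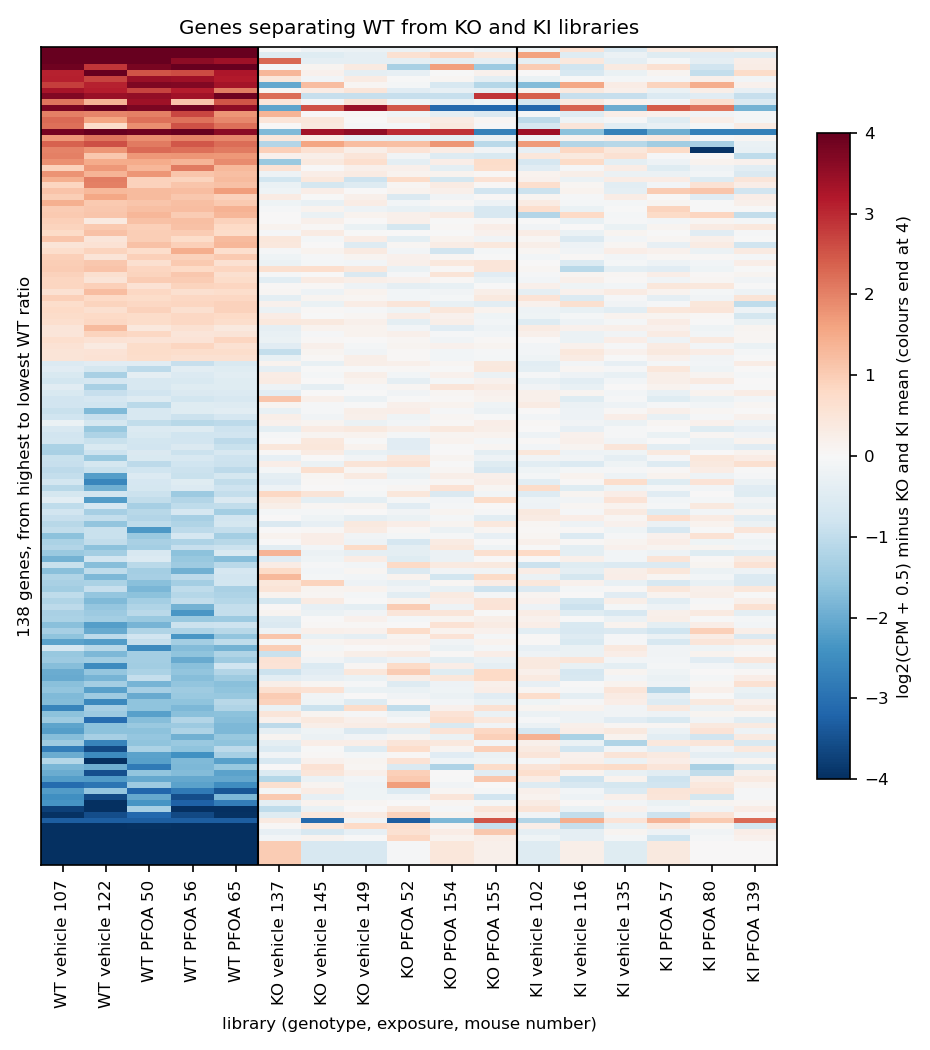
Heat map of the 138 genes (rows, ordered by the ratio of WT to the other libraries) in 17 libraries (columns, with genotype, exposure and mouse number), coloured by log2(CPM + 0.5) minus the gene's KO and KI mean. The 53 higher and 85 lower genes follow from the rule, and a few rows near the top and foot split among the KO and KI libraries themselves.

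The size of the separation ranged from the limit to very large. In 98 genes the means differed at least 2-fold, in 40 at least 4-fold and in 16 at least 10-fold. The median was 2.25-fold for genes higher in WT and 2.93-fold for those lower in WT. Just inside the fold limit were Slc3a2, the heavy chain of amino acid transporters (1.51-fold), Cyp4b1, a fatty acid hydroxylase (1.52-fold), and Prkg2, a cGMP-dependent kinase (1.54-fold), all higher in WT. Just outside it were Scly (1.49-fold), Liph (1.49-fold) and Slc1a5 (1.48-fold), which also separated. At the CPM floor, 9330104G04Rik, Ccdc184 and A630081D01Rik were just inside, with means of 2.01, 2.10 and 2.17 CPM, and C130046K22Rik, Rps15a-ps8 and Gm50250 just outside, with 1.98, 1.93 and 1.87 CPM.

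Among the lists with a named function the interferon response held the most members, and each of them was lower in WT. Of 37 genes on the interferon list that reached the CPM floor, 6 met the rule (16.2%, against 0.852% of all genes), namely Oas1a, Oas2, Mx1, Gbp6, Ifi209 and Ifi213. The WT mean was the lower in 37 of the 37, with a median log2 ratio of -0.85, whereas it was the lower in 56.4% of all 16200 genes. The summed level of the list was 405 to 693 CPM in WT and 697 to 1558 CPM in the KO and KI libraries. The sums did not overlap, but they hold the 6 members, whose non-overlap the rule required, so this is in part built in. The list without these members was not summed. The highest WT and the lowest KI library were nearly level, and WT vehicle 122 was the lowest. Since the set was known from these data when the list was used, the counts describe the set.

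Ifi213, a PYHIN gene of the interferon-inducible cluster on chromosome 1 (chr1:173566283-173599274), had the widest gap of this group. Its WT values were 0.182, 0.282, 0.308, 0.212 and 0.620 CPM, and 4 of the 5 were under what 3 counts make in their library (0.325 to 0.729 CPM over all libraries). KO ran from 27.0 to 52.0 CPM (median 32.0), and KI from 16.7 to 32.8 CPM (median 26.8). Reads of this gene were thus nearly missing in WT and plain in all 12 other libraries. Its neighbour Ifi206 had 0.284 to 0.897 CPM in WT and 5.66 to 22.7 CPM in the others. Ifi209, between Ifi213 and Ifi211, had WT values of 3.75, 3.68, 4.30, 4.23 and 4.24 CPM against 8.42 to 40.9 CPM. The spread of Ifi209 was much wider among the KO libraries, with SD 13.5 CPM, than in WT, with SD 0.300 CPM. Ifi211 completed the run of 4 among 10 measured genes in the 0.43 Mb between the first and last start, at 1.26 to 2.61 CPM in WT and 3.33 to 13.4 CPM in the others. PYHIN genes are near-identical in part. Summed with its copy Ifi214, Ifi209 still met the rule (6.38 against 26.6 CPM), while Ifi211 summed with Ifi204 and Ifi205 no longer separated (10.9 against 22.2 CPM).

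Oas2 and Oas1a, synthetases of the oligoadenylates that activate RNase L, lie 0.17 Mb apart on chromosome 5. Oas2 had WT values of 0.930, 1.10, 3.96, 2.25 and 1.69 CPM against 6.65 to 38.2 CPM in the others. The highest Oas2 value, 38.2 CPM, was that of KO PFOA 52, more than double the next KO value of 18.2 CPM. Oas1a ran from 1.63 to 3.22 CPM in WT and from 3.35 to 11.7 CPM in the others, so the WT maximum and the lowest KI value were close. Mx1, an antiviral GTPase that the annotation calls a polymorphic pseudogene, was at 0.902 to 2.21 CPM in WT against 2.35 to 10.1 CPM. Gbp6, a guanylate-binding GTPase, was at 5.92 to 11.5 CPM against 14.3 to 49.4 CPM. Among other immune members picked after their values were seen, Sting1, the adaptor of cytosolic DNA sensing, had 6.89 ± 0.913 CPM (SD, n = 5) in WT against 10.8 CPM. Its highest WT value, 7.67 CPM, nearly met the lowest other value, 7.74 CPM. The interferon-inducible GTPase gene Gvin1, picked likewise, had 19.5 ± 5.77 CPM (SD, n = 5) against 30.0 to 127 CPM (mean 84.3 CPM). Summed with its 3 near-identical copies, Gvin1 still met the rule (116 against 271 CPM).

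**Figure D2:**
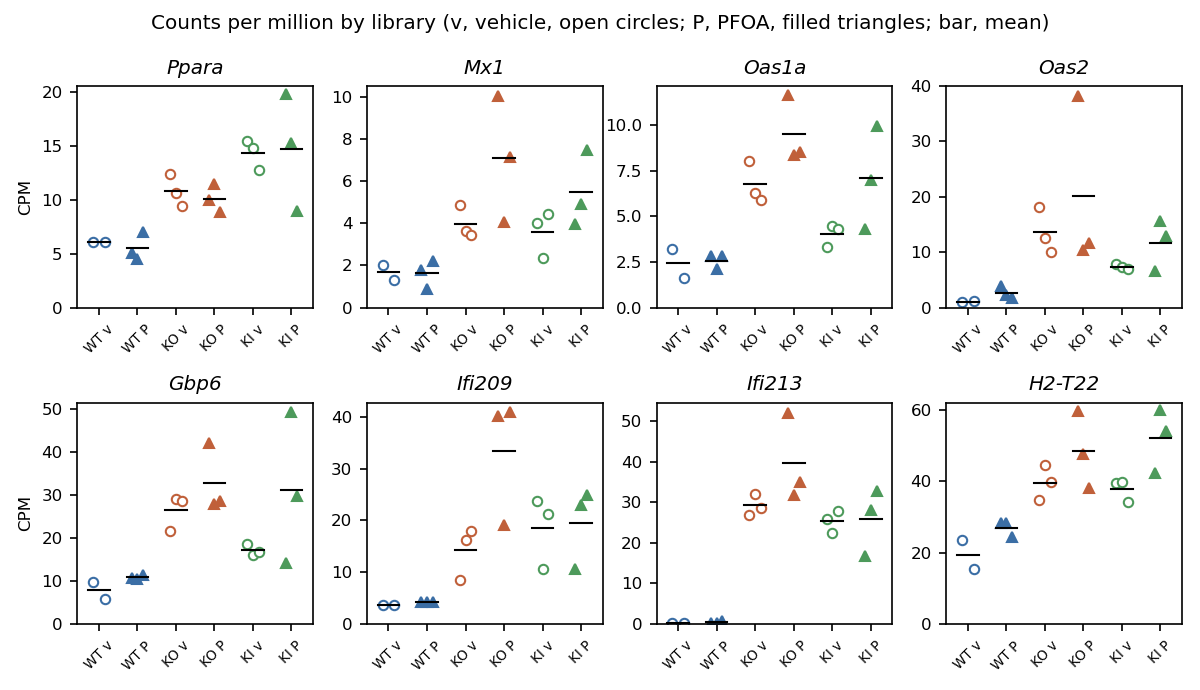
CPM of Ppara, 6 interferon genes and H2-T22 in each library, by genotype and exposure, with group means as bars. WT libraries lie below all KO and KI libraries in each panel, as the rule requires, and the KO and KI points spread more widely than the WT points in most panels.

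Antigen presentation genes lay on the same side. Of 29 measured genes of that list, 3 were members (10.3%, against 0.852% of all genes). The WT mean was the lower in 27, with a median log2 ratio of -0.64. Nlrc5, the transactivator of MHC class I genes, had WT values of 7.71 and 7.16 CPM on vehicle and 18.4, 13.7 and 17.4 CPM on PFOA, against 22.9 to 50.6 CPM in the others. H2-T22, a nonclassical class I gene recognised by γδ T cells, was at 15.3 to 28.2 CPM in WT against 34.1 to 59.8 CPM. H2-DMb2, a class II peptide-loading chain, was at 2.6 to 7.60 CPM against 7.98 to 19.3 CPM, but no longer separated once summed with its copy H2-DMb1 (20.2 against 31.5 CPM). Ncr1, the NK cell receptor NKp46, was at 0 to 2.46 CPM in WT and 2.97 to 11.3 CPM in the others, and was the only member of 13 measured T and NK cell markers.

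Other cell type markers moved in part with these genes. The WT mean was the lower for 12 of 13 T and NK, 9 of 9 monocyte, 6 of 6 neutrophil and 10 of 10 cardiac muscle markers, beside 56.4% of all genes, and none of these but Ncr1 was a member. Other cell type lists lay on either side. The WT mean was the lower for 9 of 10 alveolar type 2 markers (median log2 ratio -0.15) and 8 of 11 B and plasma cell markers (-1.37). The same held for 8 of 12 ciliated, 6 of 10 fibroblast, 5 of 10 endothelial and 5 of 12 alveolar macrophage markers. For smooth muscle it held for 3 of 8 and for erythroid cells for 2 of 4. Most club cell markers lay the other way, with 3 of 10 lower in WT (median log2 ratio 0.41), as did alveolar type 1 markers, with 0 of 8 lower (0.18). The summed T and NK level was 16.9 to 64.6 CPM in WT and 41.3 to 119 CPM in the others. Monocyte sums were 99.4 to 189 CPM against 110 to 281 CPM, and neutrophil sums 19.4 to 65.4 CPM against 27.2 to 142 CPM. Cardiac muscle sums ran from 386 to 4616 CPM in WT and from 340 to 8098 CPM in the others. Club cell sums were 9678 to 27060 CPM in WT and 6624 to 14130 CPM in the others, the highest in WT vehicle 122. These sums overlapped between the genotypes, and their part in the results above was not tested. In whole lung, fewer cells of a type and less RNA per cell cannot be told apart.

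Cytochrome P450 and zinc finger genes held members at unlike shares. Of 30 measured cytochrome P450 genes, Cyp2b13 and Cyp4b1 were members (6.67%, against 0.852% of all genes), both higher in WT. Cyp2b13, a steroid and drug hydroxylase of the Cyp2b cluster, had 25.4 to 36.4 CPM in WT and 0 to 14.4 CPM in the others. Cyp4b1 had 363 to 417 CPM against 130 to 335 CPM. Of 340 zinc finger genes, 4 were members (1.18%, near the share of all genes). Zfp973 was higher, and Zfp619, Zfp641 and Zfp773 were lower in WT.

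Among genes with no named list, the largest ratios included several coding genes without a near-identical copy. Gdpd3, a lysophospholipase D (chr7:126766334-126775649), had WT values of 45.4, 33.5, 57.7, 55.1 and 47.5 CPM. KO ran from 3.49 to 6.68 CPM and KI from 3.87 to 5.55 CPM, a 9.87-fold gap of the means with little spread in either engineered genotype. Atp1a4, a sodium pump subunit known from sperm, was at 6.33 to 10.6 CPM in WT. It was at 0 in 8 of the 12 other libraries and at 2.69 CPM in KO vehicle 137, and without that library its log2 ratio went from 4.96 to 7.01. Ccdc190 had 5.04 to 20.2 CPM in WT, the highest in WT vehicle 122, and 0 to 1.94 CPM in the others. The lincRNA Gm2682 was nearly missing in WT, with 6 counts over 5 libraries, and ran from 9.22 to 31.3 CPM in the others. Gm42047, another lincRNA, had 1 count in all WT libraries against 4.66 to 16.4 CPM.

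A further set of members, chosen for mention after their values were seen, are receptors and matrix genes. Fcgr2b, the inhibitory IgG receptor, was at 6.58 to 12.4 CPM in WT against 13.5 to 27.9 CPM in the others. Slamf7, a receptor of NK and plasma cells, was at 2.48 to 7.27 CPM against 8.53 to 20.2 CPM, and Siglecg, an inhibitory sialic acid lectin of B cells, at 1.65 to 2.76 CPM against 2.90 to 21 CPM. The polysialyltransferase gene St8sia4 was at 20.9 to 37.0 CPM against 44.4 to 105 CPM. All 4 lay lower in WT, whereas the death receptor gene Tnfrsf21 lay higher, at 58.9 to 90.1 CPM against 30.0 to 48.2 CPM. Of matrix and adhesion genes, the collagen V chain Col5a3 (1.35 to 4.28 CPM against 5.55 to 12.6 CPM), the metalloprotease Adam12 (2.17 to 3.49 CPM against 7.37 to 21.1 CPM) and the macrophage elastase Mmp12 (0.551 to 1.30 CPM against 1.94 to 5.04 CPM) were lower in WT. Tnn, a tenascin, was higher in WT, at 15.9 to 21.5 CPM against 3.25 to 6.32 CPM.

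Members of other roles were likewise chosen for mention after their values were seen. Ces1d, a carboxylesterase, had 291 to 524 CPM in WT against 160 to 275 CPM, and Bcat2, the mitochondrial branched-chain aminotransferase, 19.2 to 25.9 CPM against 11 to 17.4 CPM, both higher in WT. Pttg1, the securin gene, had 0.138 to 1.30 CPM in WT against 2.2 to 6.80 CPM, and the DNA repair gene Fanca 0.614 to 1.25 CPM against 2.79 to 6.18 CPM. The cell cycle factor E2f3 had 1.79 to 5.32 CPM against 5.83 to 8.85 CPM, and these 3 were lower in WT. Of 147 measured ribosomal protein genes and pseudogenes 5 were members (3.40%, against 0.852% of all genes). The coding Rpl35a was higher in WT, at 14.1 to 22.7 CPM against 4.06 to 8.06 CPM, and Rpl34 lower, at 4.54 to 7.54 CPM against 10.2 to 28.5 CPM. The pseudogene Rpl15-ps6 was at 17.6 to 24.7 CPM in WT and at 1.66 CPM or less in the others.

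By position, the genes were gathered in runs. Of the 138, 58 (42.0%) started within 1 Mb of another member, in 23 runs, whereas 14.4% of the 16062 other genes that reached the CPM floor started within 1 Mb of a member. The runs did not share 1 direction. In 11 runs members were both higher and lower in WT, in 9 all were lower and in 3 all were higher. Chromosome 7 held 23 members (1.81% of its measured genes) and chromosome 1 held 19 (1.69%), while chromosome 19 held 1 (0.188%) and chromosome 6 held 2 (0.219%). Members near each other can share reads or a stretch of DNA, and they are not independent observations.

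**Figure D3:**
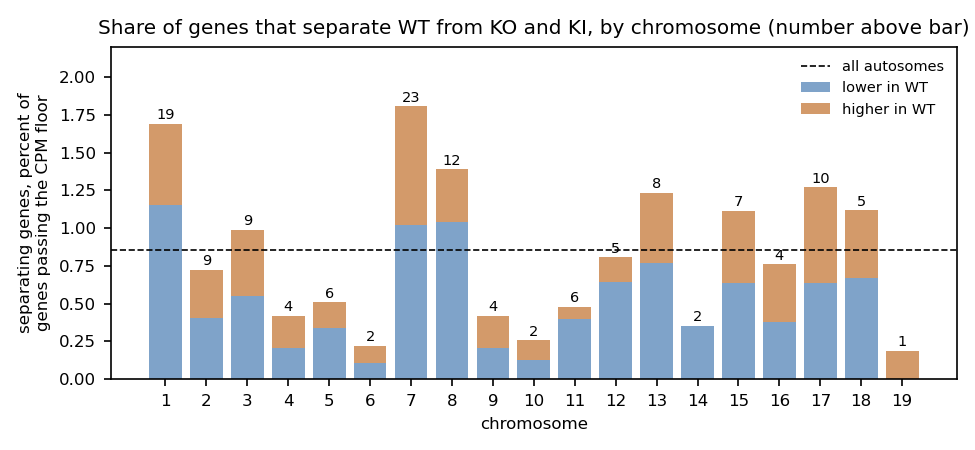
Bars show the percent of genes reaching the CPM floor that separate WT from KO and KI on each autosome, split by direction, with the number of genes above each bar and the share over all autosomes dashed. Chromosomes 7, 1 and 8 hold the largest numbers, 23, 19 and 12.

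The runs placed genes of opposite direction side by side. On chromosome 7, Mill2, Pglyrp1 and Ccdc61 are 3 of the 3 measured genes in a 0.05 Mb span. Mill2, an MHC class I-like gene, had WT values of 65.1, 43.0, 74.7, 77.2 and 62.8 CPM against 27.1 to 38.4 CPM. Pglyrp1, a peptidoglycan recognition protein, was higher in WT too, at 4.92 to 11.6 CPM against 1.32 to 4.19 CPM. Ccdc61, a basal body protein on the other strand, was lower, at 6.23 to 7.84 CPM against 9.64 to 18.1 CPM. On chromosome 2, the complement inhibitor Cd59a had 8.41 to 9.97 CPM in WT against 16.8 to 28.9 CPM, while its neighbour D430041D05Rik had 15.2 to 29.0 CPM against 2.59 to 11.5 CPM. On chromosome 17, Glo1, the glyoxalase that detoxifies methylglyoxal, had 47.6 to 69.6 CPM in WT against 29.7 to 37.7 CPM, and the antisense RNA Gm50240 beside it 9.21 to 12 CPM against 2.90 to 6.90 CPM. In all, 22 members started within 0.1 Mb of another.

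Some of the members are copies of one another or of other genes, and in these a different split of reads between copies and a different expression cannot be told apart gene by gene. Near-identical copies, of at least 95% identity over at least 50% of the longest transcript, were in the table for 30 of the 138. When each was summed with its copies, 12 still met the rule and 18 no longer separated WT from the others. The 17 pseudogenes among the members are 12.3% of them, against 6.58% of the 16200 genes. The ribosomal pseudogenes Rps13-ps1 and Rps13-ps2 mirrored each other. Rps13-ps1 had 44.0 to 64.0 CPM in WT against 5.70 to 28.9 CPM, and Rps13-ps2 had 0.114 to 12.1 CPM against 15.2 to 44.9 CPM. The 12.1 CPM was that of WT PFOA 50, and without that library the log2 ratio of Rps13-ps2 went from -3.37 to -5.14. Summed with their family, both were at 60.2 ± 8.96 CPM (SD, n = 5) in WT and 56.9 CPM in the others. The snRNA Gm22513, with the largest ratio of all, had 44.3 to 163 CPM in WT and 0 to 0.620 CPM in the others, but 272 against 209 CPM with its 18 copies. The tubulin pseudogenes Gm14150 and Gm17383 were on opposite sides alone, and their family sum was 353 against 364 CPM.

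The coding gene Gpr137b and its pseudogene Gpr137b-ps made such a pair without passing the copy limit, and were looked at together after their values were seen. Gpr137b, a lysosomal membrane protein gene, had WT values of 69.4, 54.2, 76.8, 77.4 and 63.2 CPM against 28.5 to 47.7 CPM. Gpr137b-ps had 6.10, 1.28, 6.18, 3.12 and 4.56 CPM against 25.4 to 42.8 CPM. Their sum was 72.4 ± 11.1 CPM (SD, n = 5) in WT and 72.5 ± 8.87 CPM (SD, n = 12) in the others. The pair thus separated gene by gene and overlapped fully in sum.

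In other copied genes the KO and KI libraries were themselves split. Gm45315, a pseudogene with 28 copies in the table, had 39.4 to 61.8 CPM in WT, 23.7 to 37.3 CPM in 4 KO libraries and 33.3 CPM in KI vehicle 102, and under 1 CPM in the 7 remaining. Mettl7a2, a methyltransferase-like gene, had 51.9 to 71.9 CPM in WT, while the others ran from near 0 to 47.5 CPM. Its sum with Mettl7a1 and Mettl7a3 was 565 against 438 CPM and did not separate. Gm13577 was at 0 in all WT libraries, and its mean over the 12 others was at least 21.6-fold higher, against 3 counts in each WT library. Of these 12, KO PFOA 52 and KO vehicle 145 were themselves under 3 counts, and with its copies the gene was at 136 CPM in WT against 135 CPM. The 5S ribosomal RNA genes n-R5s106, n-R5s118, n-R5s130 and Gm24312 hold the same values, 0.133 CPM in WT and 28 CPM in the others, so they count as 1 observation. Their family of copies still met the rule in sum, at 26.6 ± 13.5 CPM (SD, n = 5) against 138 CPM. Of all 138 members, copied genes among them, 61 overlap a gene on the opposite strand, and how the counting used the strand was not given in the sources used here.

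**Figure D4:**
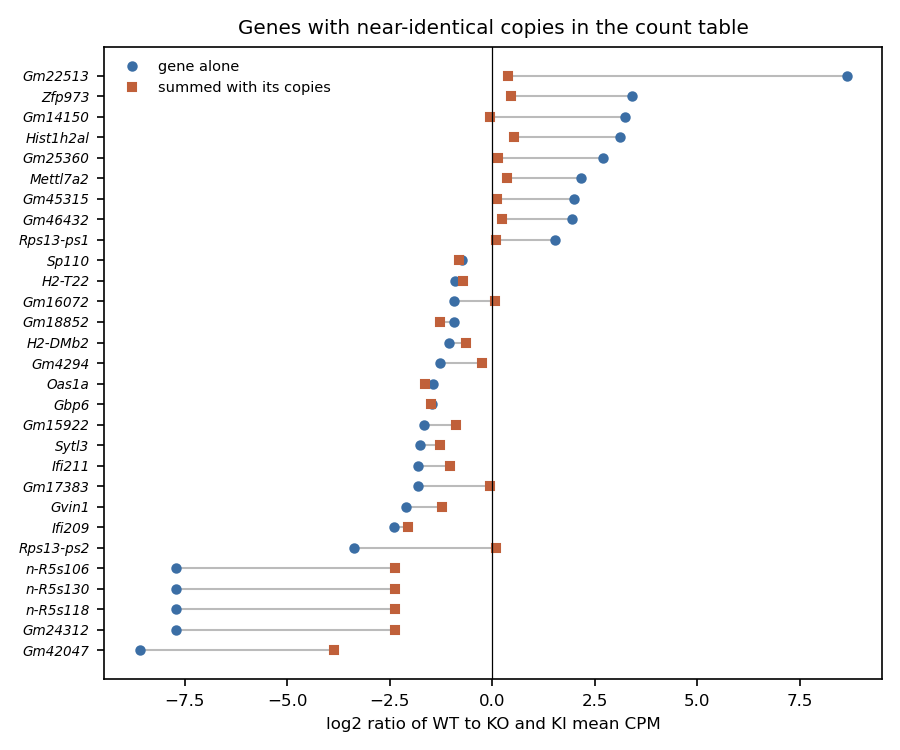
Log2 ratio of the WT mean to the KO and KI mean for 29 genes with near-identical copies, alone (circles) and summed with the copies (squares), leaving out Gm13577, which is at 0 in WT. The large ratios of Gm22513, Gm14150 and Rps13-ps2 shrink to near 0, while those of Ifi209, Gbp6, Oas1a and H2-T22 stay close to where they were.

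The response to PFOA was tested in each genotype by itself and in the 3 genotypes jointly, comparisons that did not choose the genes, though the requirement of non-overlap limits how far values may spread within WT and within the rest. With the edgeR quasi-likelihood test over 26946 genes, a gene was called at more than 2-fold with an adjusted p under 0.2. None of the 138 passed for any genotype or over them jointly, where 0% of all genes passed in each. At an unadjusted p under 0.05 the members numbered 10 for WT, 14 for KO, 12 for KI and 19 over the genotypes. Of the 16200 genes that reached the CPM floor the shares were 9.08% for WT, 8.15% for KO, 2.8% for KI and 10.4% over the genotypes, against 7.25%, 10.1%, 8.70% and 13.8% of the members. The median size of the log2 fold change was 0.30 for the members in WT, beside 0.21 for the 16200 genes, and 0.20 beside 0.14 in KI. In DESeq2, 8, 10, 11 and 16 members (5.80%, 7.25%, 7.97% and 11.6%) had an unadjusted p under 0.05, against 8.75%, 7.43%, 2.51% and 11.2% of the 16200 genes. It called 1 member, Gm2682 in KO, where it called 68 of the 26946 genes (0.252%), and 0 members in WT, KI and over the genotypes, where it called 0.0891%, 0.00371% and 0.0965% of genes. The paper's own DESeq2 fit lists the members Ncr1 and Nlrc5 as higher on PFOA in WT. It cautions that, with few vehicle lungs, several of its listed genes passed on weak support. The index number of the libraries moved with exposure in part. The 3 KO PFOA libraries shared an index number that no KO vehicle library carried, so index and PFOA cannot be told apart in KO. Both WT vehicle libraries shared another, carried by 1 of the 3 WT PFOA libraries.

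The members nearest to a call in WT were Gm33248, Ncr1 and Gm10044. Gm33248, an intronic RNA, had 0.930 and 1.79 CPM on vehicle and 0.256, 0.451 and 0.130 CPM on PFOA, a log2 fold change of -2.41 ± 0.57 (SE, edgeR adjusted p = 0.456). Ncr1 had 0.399 and 0 CPM on vehicle and 2.05, 1.5 and 2.46 CPM on PFOA, a log2 fold change of 3.09 ± 0.74 (SE, edgeR adjusted p = 0.456). The vehicle and PFOA values of both genes did not overlap, at levels of few counts. With WT vehicle 107 left out, 14 members (10.1%) were called in WT, among them these 3, where 6.25% of all 26749 genes tested were called. An unadjusted p under 0.05 then held for 28 members (20.3%) and 21.5% of the 16200 genes. The lone vehicle library then was WT vehicle 122, in which 65.3% of counts were in protein-coding genes, against 78.5% to 80.4% in the other WT libraries. The median size of the log2 fold change in WT, with WT vehicle 107 left out, was 0.50 for the members, beside 0.37 for the 16200 genes. With WT vehicle 122 and KO vehicle 137 (61.3%) left out instead, it was 0.20 beside 0.17. WT vehicle 107 was then the lone WT vehicle library.

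In KO the smallest p-values were those of Gm2682, Gm15922 and Ifi209. Gm2682 had 11.4, 9.22 and 11.6 CPM on vehicle and 22.6, 18 and 31.3 CPM on PFOA, a log2 fold change of 1.20 ± 0.29 (SE, edgeR adjusted p = 0.434). Its 3 PFOA values lay above the 3 vehicle values. Ifi209 had 8.42, 16.2 and 18 CPM on vehicle and 40.2, 19.1 and 40.9 CPM on PFOA, a log2 fold change of 1.25 ± 0.35 (SE, edgeR adjusted p = 0.464). Gm15922, a gene of the paired immunoglobulin-like receptor family, had a log2 fold change of 0.92 ± 0.25 (SE, edgeR adjusted p = 0.458). It has 8 near-identical copies in the count table, which leave its count uncertain. Summed with them it no longer separated WT from the others (32.4 against 60.1 CPM). In KI, the adjusted p was 1.0 for the 3 members with the smallest p (Rpl15-ps6, Gm16212 and Gbp6). Gbp6 there had 18.6, 16.1 and 16.8 CPM on vehicle and 14.3, 49.4 and 29.8 CPM on PFOA, so the groups overlapped.

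Over the genotypes, H2-T22 had the smallest p among the members. It had a log2 fold change of 0.38 ± 0.10 (SE, edgeR adjusted p = 0.394), with fitted changes of 0.34 for WT and KO and 0.46 for KI. Zfp973, a zinc finger gene higher in WT, had -0.76 ± 0.20 (SE, edgeR adjusted p = 0.398), and its near-identical copies leave its count uncertain. None of the 6 interferon list members was called in any genotype. Their fitted log2 fold changes on PFOA over the genotypes were 0.28 to 0.73, with adjusted p-values of 0.468 to 0.682 (edgeR).

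**Figure D5:**
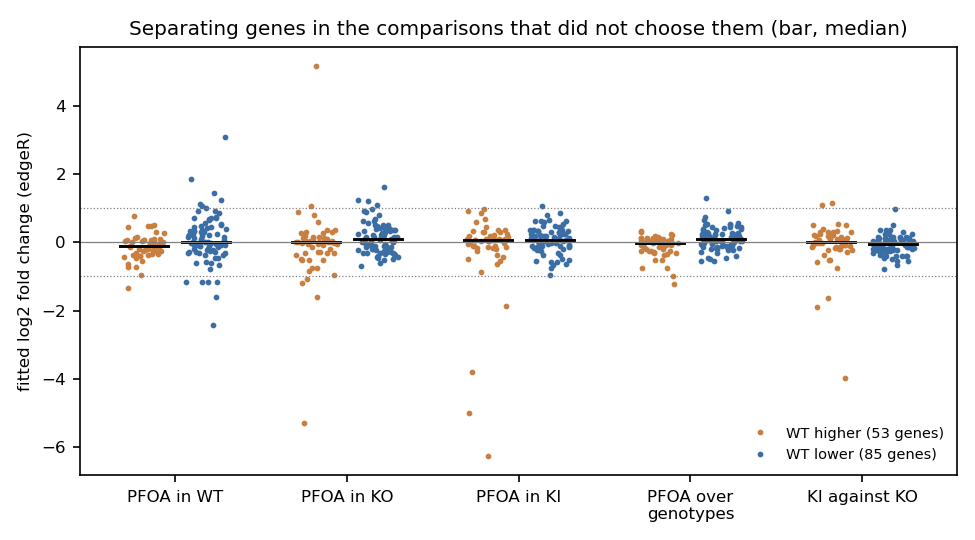
Fitted log2 fold changes of the 138 genes (points; 53 higher and 85 lower in WT) between PFOA and vehicle libraries, by genotype and jointly, and for KI against KO, with medians as bars and dotted lines at a 2-fold change. Most points lie within 2-fold and the medians are near 0, and the few distant points are genes of low or split counts such as Rpl15-ps6 and Gm45315.

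Whether the PFOA effect differed between genotypes was tested as an interaction. No member was called for KO against WT or for KI against WT (edgeR), where again 0% of all genes passed. At an unadjusted p under 0.05 there were 11 and 9 members (7.97% and 6.52%), against 6.02% and 4.98% of the 16200 genes, and in DESeq2 7 and 7 (5.07% each), against 5.18% and 4.39%. DESeq2 called 0 members in either, and 3 (0.0111%) and 1 (0.00371%) of all genes. Gm33248 had the smallest p in both, with a difference of log2 effects of 2.26 ± 0.66 (SE, edgeR adjusted p = 0.669) in KO and 2.94 ± 0.65 (SE, edgeR adjusted p = 0.999) in KI.

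In the comparison of the engineered genotypes with each other, a larger share of the members than of all genes had a small unadjusted p, and none was called. For KI against KO, 0 of the 138 were called, whereas 2 of all 26946 genes were (0.00742%). Unadjusted p under 0.05 held for 15 members (10.9%) against 4.67% of the 16200 genes, of which 5 were higher and 10 lower in KI, and DESeq2 gave 13 (9.42%) against 4.07%, with 0 members and 11 of all genes (0.0408%) called. The median size of the fitted difference was 0.17 on the log2 scale, beside 0.10 for the 16200 genes. Gm45315 had the smallest p, at -3.98 ± 1.21 (SE, edgeR adjusted p = 1.0), and it is 1 of the split pseudogenes above. Gm20628, an antisense RNA in the histone cluster of chromosome 3, had 2.17 to 4.61 CPM in KO and 1.02 to 2.87 CPM in KI, a log2 difference of -0.74 ± 0.24 (SE, edgeR adjusted p = 1.0). The KI mean lay nearer to the WT mean than the KO mean did for 85 genes, and the KO mean nearer for 53. The split over all genes is not given here, so no likeness of KI to WT is read from these counts. Oas2 and Oas1a were among the 15, with log2 differences of -0.79 ± 0.30 and -0.54 ± 0.21 (SE), lower in KI. All KO mice were female, whereas KI had 2 males, so sex differs in part between these genotypes. With sex as a covariate, an unadjusted edgeR p under 0.05 held for 8 of the 138 and for 537 of the 16200 genes (3.31%). In female libraries alone the counts were 9 of the 138 and 469 of the 16200 genes (2.9%).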

How the data were processed

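Lung RNA of 17 mice was measured. After trimming, the authors mapped reads on mm10 (STAR 2.6, Partek Flow) and deposited estimated counts per gene from an expectation-maximization model, not normalized; 29.9% of the table's cells are not whole numbers. mm10 is the C57BL/6J genome, and whether divergence of reads of the WT strain from it plays a part was not tested. The annotation release is not given in the sources used here. Columns outside the sample list numbered 0.

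Library totals were 4116116 to 9237385 counts (median 7524817), so 3 counts are 0.325 to 0.729 CPM; this covers counting error only. Counts were rounded, genes with a total of at least 20 were kept, and edgeR 4.0.16 (R 4.3.3, TMM factors, 1 coefficient per group, quasi-likelihood test, Benjamini-Hochberg) was fitted; DESeq2 1.42.0 was the alternative. On simulated counts 91.5% of 200 4-fold changes were recovered for PFOA in WT (26416 genes), 100% for KI against KO (26436) and 99.5% over the genotypes (26463). Beside them 25, 27 and 17 unchanged genes were called, and 0, 1 and 0 genes in data simulated without changes. The changed genes averaged at least 20 counts and no simulated library stood apart, so genes of fewer counts and such libraries are not covered. Replicate libraries differed by at least 6.28 chi-square per degree of freedom, beyond sampling noise. Ensembl IDs and transcripts were taken from GENCODE M21 (133 of 138 matched), copies were found with BLAST 2.17.0, and Python 3.11.15, scipy 1.17.1 and matplotlib 3.10.9 were used.

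The members and gene lists were chosen with earlier results of these data known. Genes named are Ppara, the 12 largest and 12 smallest ratios (0.5 CPM added to each mean), members within 5 Mb of Ppara, on a list of symbols or within 0.1 Mb of another member, the 3 nearest to each limit on either side, and the 3 smallest p-values of each comparison without calls. Others were picked with their values known. No WT library carried index number 504. One WT vehicle sample was not analysed here.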

Additional observations from a re-analysis of the deposited data

How the results depend on the processing

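The number of genes that met the rule was 151 with TMM-normalized CPM (127 shared), 158 and 105 with a floor of 1 and 5 CPM, 172 with no fold limit, 98 at 2-fold and 99 among coding genes, within 1.5 times of 138. With fewer libraries non-overlap is easier to meet, and it was 524 in female libraries, 991 in vehicle, 551 in PFOA and 233 without both libraries of low protein-coding share (WT vehicle 122 and KO vehicle 137). Leaving out each library gave 141 to 206, the most without WT vehicle 122. Judging copied genes on their sums, added after seeing the data, left 120. Members within 1 Mb of another were 42 at 0.5 Mb and 73 at 2 Mb, and 38 among coding genes, where fewer genes enter. Calls for PFOA in WT were 0 to 14 with each library left out, 14 without WT vehicle 107. The PFOA effect of KO against WT had 0 to 3 calls and of KI against WT 0 to 5, the most in each without WT vehicle 107, where 178 (0.665%) and 350 (1.31%) of 26749 genes were called. KI against KO had 0 to 1, with Gm45315 called without KI vehicle 102. DESeq2 called 1 for PFOA in KO, Gm2682. Every other setting run gave 0 for the 7 comparisons. A lone library left in a group is assumed to vary like the other groups. Non-overlap fixes the direction of a member's ratio when libraries are left out, so no stability is read from it. Of 1062 ratios of 56 named genes under other settings 33 moved beyond 1 SD of the WT values. Of 530 fitted values 0 changed direction and 8 became calls. The fitted values were those of the 3 members with the smallest p in each comparison. That choice favours a steady direction, so no stability is read from them either. Mouse numbers are not shared between groups. No paired analysis was possible because the groups share no replicate number. Depth limits the genes near 0 in WT.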

Other observations

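The rule covered autosomes. On the X chromosome, 3 genes met the rest of it, Prrg3, Shroom2 and Sytl5, each higher in WT, by 1.83-fold, 1.51-fold and 1.73-fold of the means. Prrg3, a membrane protein with a Gla domain, had 155 to 185 CPM in WT and 56.4 to 115 CPM in the KO and KI libraries. Among females (2 WT against 10 others), where non-overlap follows from that over all libraries, the folds were 1.86, 1.56 and 1.65. They are given as a description, since their own values chose them.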
